A study of Mus musculus with 2 samples.

Results

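A set of 9 genes whose products, other than insulin, are known targets of the immune attack on pancreatic beta cells were followed through islet cells of NOD mice on 2 diets. The genes are G6pc2, Slc30a8, Chga, Ptprn, Ptprn2, Gad1, Gad2, Ica1 and Tspan7, chosen by name, and all 9 were found among the 31053 genes of both count tables.

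In autoimmune diabetes, T cells and antibodies single out a limited set of beta cell proteins, and NOD mice develop such a disease spontaneously. Many of these proteins sit on the path that stores and releases insulin. Chromogranin A (Chga) is packed in secretory granules, Slc30a8 moves zinc into them, and the receptor-type phosphatase relatives Ptprn (IA-2) and Ptprn2 (phogrin) span their membrane. G6pc2 is a glucose-6-phosphatase of the endoplasmic reticulum and a target of cytotoxic T cells in NOD mice. Gad1 and Gad2 encode the enzymes that make the transmitter GABA, Ica1 acts in membrane traffic, and Tspan7 is a tetraspanin of the cell surface.

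Single cells came from hand-picked islets of wild-type NOD/ShiLtJ mice aged 15 weeks. The gluten group ate 16% HC + 4% gluten and the HC-only group ate 20% HC, and the labels do not expand HC. The submitters named the deposited counts casein gluten and casein only. Cells of 3 mice were pooled into 1 library per diet, so each diet is 1 sample and no test between the diets exists. Values below are counts of unique molecular identifiers (UMIs), each standing for 1 captured RNA molecule, and their 95% intervals are exact and cover counting error only.

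The gluten library held 8200 barcodes with 88268070 UMIs and the HC-only library 7758 barcodes with 116900677 UMIs. After filters and removal of likely doublets, 7122 and 7111 cells remained, with a median of 6401 UMIs in the gluten library and 5460 in the HC-only library; 15 barcode sequences occurred in both libraries. A cell was assigned to a class by its own level of markers of 19 cell types, none of them a gene of the set, and is called X-like for that reason. The gate left 13.6% of gluten cells and 7.65% of HC-only cells unassigned. In all, 11 classes held at least 50 cells in each library, among them 1221 and 1574 beta-like, 870 and 495 alpha-like, 568 and 307 delta-like, and 192 and 133 PP-like cells in the gluten and HC-only libraries. Beta-like cells drew 62.1% of their UMIs from Ins1 and Ins2 in the gluten library and 62.3% in the HC-only library, and the leading genes of the class included Ins1, Ins2, Mafa and Ucn3. In PP-like cells Ppy and Pyy had the highest folds over the other classes. The median PP-like cell nevertheless held 2184 glucagon UMIs per 10000, against 667 of Ppy and Pyy together. Comparisons with PP-like cells are thus with a class rich in glucagon RNA. Of PP-like cells 21.8% lay near the gate, against 2.50% of beta-like cells.

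The genes lie on 6 chromosomes of the mm10 (GRCm38) build. G6pc2 spans chr2:69211073-69227841 and shares that chromosome with Gad1 (chr2:70553072-70602014) and Gad2 (chr2:22622205-22693874), all on the plus strand. Ptprn lies on chr1:75247027-75264502 and Ica1 on chr6:8630527-8778488, both on the minus strand. Ptprn2 covers chr12:116485720-117276849, the longest gene of the set at 791130 bp, and Chga lies on the same plus strand at chr12:102554969-102565028. Slc30a8 is at chr15:52295553-52335798 and Tspan7 at chrX:10485158-10596605, both on the plus strand. Exons of Ptprn overlap those of an annotated antisense gene, Gm28294, which held 1 UMI in each library, against 7289 for Ptprn in the gluten library and 9065 in the HC-only library. Gad1 has an antisense neighbour in its locus, Gad1os, with 5 UMIs in the gluten library and 2 in the HC-only library.

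RefSeq promoter sequences (GRCm38.p6) were matched to 8 of the 9 genes. The 250 bases before the RefSeq start are shown for G6pc2, the gene with the largest fold over alpha-like cells, for Chga, shared by all endocrine classes, and for Ptprn2, the gene with the largest diet ratio in beta-like cells. Capitals mark matches on either strand to CANNTG (the E-box core, bound by NEUROD1 with its partners) or TGACG (the CRE core, bound by CREB).
G6pc2: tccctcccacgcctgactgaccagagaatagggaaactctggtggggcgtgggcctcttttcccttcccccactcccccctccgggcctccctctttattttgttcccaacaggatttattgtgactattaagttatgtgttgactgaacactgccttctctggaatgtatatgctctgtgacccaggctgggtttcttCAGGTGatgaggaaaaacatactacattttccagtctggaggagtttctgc
Chga: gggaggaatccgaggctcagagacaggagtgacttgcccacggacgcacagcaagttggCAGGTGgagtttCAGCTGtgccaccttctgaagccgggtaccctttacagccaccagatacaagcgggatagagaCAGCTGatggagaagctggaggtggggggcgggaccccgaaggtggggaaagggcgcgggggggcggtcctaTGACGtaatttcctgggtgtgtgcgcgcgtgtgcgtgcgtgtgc
Ptprn2: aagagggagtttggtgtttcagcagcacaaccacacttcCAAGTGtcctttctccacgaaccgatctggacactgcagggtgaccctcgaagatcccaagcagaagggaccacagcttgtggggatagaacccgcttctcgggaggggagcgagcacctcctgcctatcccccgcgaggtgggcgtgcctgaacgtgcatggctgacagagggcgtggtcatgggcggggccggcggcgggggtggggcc
The windows are chr2:69210823-69211072, chr12:102554691-102554940 and chr12:116485470-116485719, all plus strand. The G6pc2 and Ptprn2 windows each held 1 E-box core and no CRE core, whereas the Chga window held 3 E-box cores and 1 CRE core that ends 39 bases before the start. Among 32851 promoter windows of the same length, 66.2% held CANNTG and 17.8% held TGACG. An E-box core is thus present in most promoters of this length, and a match is a description of the letters only.

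Levels are given as UMIs per 1000000 UMIs outside hormone, acinar-marker and mitochondrial genes, written nCPM, because hormones and these other genes took 69.2% of beta-like UMIs in the gluten library and 69.4% in the HC-only library. Classes were compared with edgeR's quasi-likelihood test on the summed UMIs of the 4 endocrine classes in both libraries (8 sums), with library as a block and p-values adjusted over 12316 genes. The block takes out the overall difference between the libraries. The spread in this test is thus how class differences vary between 1 gluten and 1 HC-only pool, with no further replicate. Without trimmed-mean (TMM) normalization the median log2 of all genes was -0.87 for beta-like over alpha-like, -1.13 over delta-like and -0.73 over PP-like cells. With TMM these medians were -0.02, 0.01 and 0.0004. Changes below are relative to that shift, and directions that turn without it are named.

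Of the 8 genes with enough UMIs to test, 3 were higher in beta-like than alpha-like cells and 3 were lower, where 28.3% of all tested genes were called higher and 28.4% lower. Against delta-like cells 5 were higher and 3 lower in beta-like cells (25.9% and 24.8% of all genes), and against PP-like cells 4 were higher and 3 lower (20.8% and 21.3%). Between the other classes, alpha-like cells were higher than delta-like cells in 4 genes and lower in 3 (19% of all genes each way), and higher than PP-like cells in 2 and lower in none (1.74% and 3.2%). Delta-like cells were higher than PP-like cells in 2 genes and lower in 3 (9.56% and 9.16%). G6pc2 and Gad1 stood far above the other endocrine classes in beta-like cells, Chga and Slc30a8 were graded, and Ptprn2 and Tspan7 were lower in beta-like than in alpha-like cells. With all classes in the fit, the calls of Chga, Tspan7 and Ica1 against alpha-like cells, of Ptprn and Tspan7 against delta-like cells and of Ica1 and Tspan7 against PP-like cells were lost. Without the library block, Ptprn2 lost its calls against delta-like and PP-like cells.

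**Figure D1:**
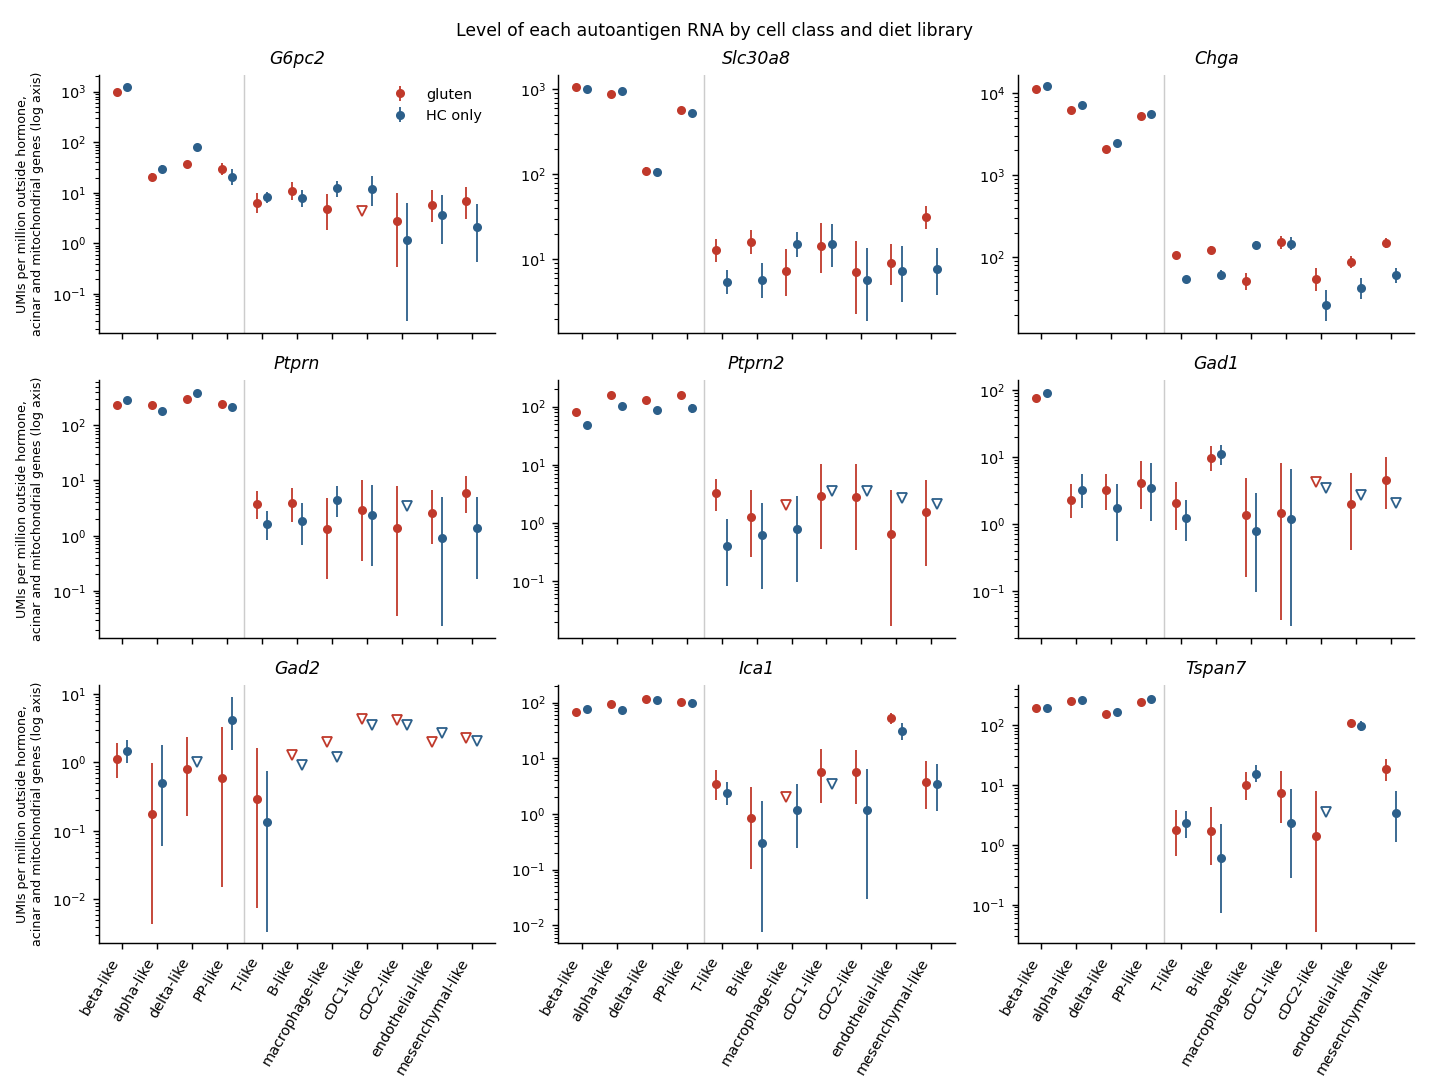
Levels in nCPM (log axis) for each gene in 11 cell classes, gluten library left of HC-only library, with exact 95% counting intervals; open triangles stand at the level of 3 UMIs where none was counted. G6pc2 and Gad1 peak in beta-like cells, whereas Ica1 and Tspan7 also show in endothelial-like cells, at 52.3 and 108 nCPM in the gluten library.

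Chga, the granule cargo protein, was graded over the endocrine classes. It reached 11208 nCPM in gluten and 12002 in HC-only beta-like cells. Alpha-like cells held 6136 and 7208 nCPM in the gluten and HC-only libraries, PP-like cells 5189 and 5481, and delta-like cells 2074 and 2434. The order beta, alpha, PP, delta was the same in both libraries, and levels of neighbouring classes did not overlap. Beta-like cells were higher than alpha-like cells by 0.72 ± 0.09 on the log2 scale (SE; edgeR adjusted p = 4.6e-06), higher than PP-like cells by 1.10 ± 0.09 (edgeR adjusted p = 8.6e-08) and higher than delta-like cells by 2.41 ± 0.09 (edgeR adjusted p = 1.1e-11). The first of these turned to -0.13 without TMM, which is still above the median shift of all genes.

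Slc30a8 separated beta-like, alpha-like and PP-like cells from delta-like cells. Beta-like cells held 1071 nCPM in the gluten and 1010 in the HC-only library, alpha-like cells 883 and 968, PP-like cells 575 and 530, and delta-like cells 111 and 108. The difference between beta-like and alpha-like cells did not pass the test (log2 0.08 ± 0.08, edgeR adjusted p = 0.41) and was -0.76 without TMM. Beta-like cells exceeded PP-like cells by 0.89 ± 0.09 (edgeR adjusted p = 8.3e-07; 0.16 and not called without TMM) and delta-like cells by 3.29 ± 0.10 (edgeR adjusted p = 5.1e-13), a 9.77-fold difference. Alpha-like cells exceeded delta-like cells to a similar extent (3.20 ± 0.10, edgeR adjusted p = 1.5e-12). Among single cells thinned to 2000 UMIs, 8.19% of gluten and 4.65% of HC-only delta-like cells held a Slc30a8 UMI, against 65.9% and 67.8% of alpha-like cells. Delta-like cells also held insulin RNA, at 4.58% of summed UMIs in the gluten and 8.73% in the HC-only library. The median delta-like cell over both libraries held 51.7 insulin UMIs per 10000, so this RNA was spread unevenly over the cells. At the ratio of beta-like cells, the insulin RNA of the class would bring along a set number of Slc30a8 UMIs. The summed Slc30a8 count was 3.06 times (gluten) and 1.62 times (HC only) that number. T-like cells, which should lack the gene, held a UMI in 1.12% (gluten) and 1.59% (HC only) at the same depth. Before thinning, the delta-like shares were 17.6% and 17.3% at median depths of 8263 and 10958 UMIs, and the T-like shares 3.39% and 2.02% at 2330 and 2757 UMIs.

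G6pc2 was concentrated in beta-like cells, at 996 nCPM in the gluten and 1261 in the HC-only library. Alpha-like cells held 20.3 and 29.6 nCPM in the gluten and HC-only libraries, PP-like cells 30.2 and 20.7, and delta-like cells 36.7 and 79.6. Beta-like cells exceeded alpha-like cells 43.1-fold (log2 5.43 ± 0.18, edgeR adjusted p = 1.2e-12), PP-like cells 42.7-fold and delta-like cells 20.8-fold. In delta-like cells the G6pc2 count was 1.08 times (gluten) and 0.957 times (HC only) what the insulin RNA there would carry, with intervals of 0.912 to 1.28 and 0.839 to 1.09. In alpha-like cells it was 4.31 times that number with gluten and 4.42 times with HC only. In delta-like cells the ratio of G6pc2 to insulin RNA was thus that of beta-like cells within counting error, and the source of either RNA was not tested. Delta-like cells were called higher than alpha-like (log2 alpha over delta -1.05 ± 0.20, edgeR adjusted p = 7.3e-04) and PP-like cells (1.04 ± 0.25, edgeR adjusted p = 0.0089). Neither call held with DESeq2, under a stricter gate the values were -0.09 and -0.26, and Leiden classes turned the first to 0.52. Without the HC-only library the delta-like over PP-like value was 0.28.

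Ptprn, the IA-2 gene, was present in all endocrine classes and highest in delta-like cells. Delta-like cells held 298 nCPM with gluten and 384 with HC only, beta-like cells 237 and 283, alpha-like cells 236 and 184, and PP-like cells 245 and 214. Beta-like cells were lower by a log2 difference of -0.34 ± 0.13 (edgeR adjusted p = 0.039) and alpha-like cells by -0.56 ± 0.14 (edgeR adjusted p = 0.0040), and delta-like cells exceeded PP-like cells by 0.50 ± 0.14 (edgeR adjusted p = 0.022), a call lost without the block and with all classes in the fit. The first is a weak call that was lost with DESeq2, with likely doublets kept, without cells that carry acinar RNA and without the block. Beta-like cells did not differ detectably from alpha-like (0.22 ± 0.13, edgeR adjusted p = 0.18) or PP-like cells (0.16 ± 0.14, edgeR adjusted p = 0.39), and both values turned negative without TMM (-0.63 and -0.57).

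Ptprn2, the phogrin gene, ran the other way and was lowest in beta-like cells. They held 80.3 nCPM with gluten and 48.8 with HC only, against 157 and 102 in alpha-like, 161 and 93.9 in PP-like and 130 and 87.5 in delta-like cells. Within each library beta-like cells had the lowest level of the 4 classes. The log2 difference from alpha-like cells was -1.09 ± 0.09 (edgeR adjusted p = 3.6e-08), from PP-like cells -1.003 ± 0.10 (edgeR adjusted p = 8.6e-07) and from delta-like cells -0.72 ± 0.09 (edgeR adjusted p = 7.3e-06). Alpha-like cells exceeded delta-like cells by 0.37 ± 0.09 (edgeR adjusted p = 0.0052; 0.08 and not called without TMM), and alpha-like over PP-like cells did not pass the test (0.09 ± 0.10, edgeR adjusted p = 0.71). In a list of 14 other receptor-type phosphatases, 12 were tested; 4 were higher and 3 lower in beta-like than alpha-like cells, where 28.3% and 28.4% of all genes were. Ptprm (4.02) and Ptpru (2.14) were among the higher, and Ptprk (-4.60) and Ptprd (-3.86) among the lower.

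Gad1 was, like G6pc2, concentrated in beta-like cells. Beta-like cells held 76.8 nCPM (892 UMIs) with gluten and 90.2 (1770 UMIs) with HC only, whereas alpha-like cells held 2.28 and 3.21, delta-like cells 3.17 and 1.70, and PP-like cells 4.15 and 3.45. The remaining endocrine classes rested on 5 to 13 UMIs per library. Beta-like cells exceeded alpha-like cells 29.0-fold (log2 4.86 ± 0.19, edgeR adjusted p = 6.7e-12), delta-like cells 33.4-fold and PP-like cells 21.3-fold. Gad2 gave 13 UMIs in gluten and 29 in HC-only beta-like cells, 1.12 and 1.48 nCPM, and at most 6 in any other class of at least 50 cells. It did not pass the filter on low counts and was not tested. In human islets the GAD2 product is the main form, in mouse islets that of Gad1. Of 13 genes that make, break down or respond to GABA, 8 were tested, of which 4 were higher in beta-like than alpha-like cells and 3 lower (28.3% and 28.4% of all genes). GABA transaminase Abat (1.06) and the receptor subunit Gabbr2 (1.62) were among the higher.

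Ica1 and Tspan7 were pan-endocrine. Ica1 stood at 69.3 and 76.9 nCPM in gluten and HC-only beta-like cells, 93.2 and 74.8 in alpha-like, 116 and 111 in delta-like, and 101 and 97.4 in PP-like cells. Beta-like cells were lower than delta-like cells (log2 -0.58 ± 0.11, edgeR adjusted p = 3.1e-04) and PP-like cells (-0.45 ± 0.12, edgeR adjusted p = 0.0081). The value against alpha-like cells (-0.28 ± 0.11, edgeR adjusted p = 0.034) rested on the gluten library and was 0.04 without it. Tspan7 stood at 191 nCPM in gluten and 190.5 in HC-only beta-like cells, 252 and 264 in alpha-like cells with gluten and HC only, 243 and 267 in PP-like, and 154 and 164 in delta-like cells. Beta-like cells were lower than alpha-like cells by -0.52 ± 0.08 (edgeR adjusted p = 4.9e-05) and higher than delta-like cells by 0.30 ± 0.08 (edgeR adjusted p = 0.0069), where the last value was -0.84 without TMM. Alpha-like and PP-like cells did not differ detectably in Tspan7 (0.08 ± 0.09, edgeR adjusted p = 0.70). Ica1l, a close relative of Ica1, was higher in beta-like than alpha-like cells by 3.25 (edgeR adjusted p = 1.2e-10).

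Patterns over the 22 sums of 11 classes and 2 libraries, which share libraries and depth, were compared by Pearson r of log2(nCPM + 1). Slc30a8 and Chga followed each other most closely (0.986), and Gad1 and Ica1 least among the pairs (0.316). The genes most like G6pc2 were Ins2 (0.956), Ins1 (0.953) and Prss53 (0.949). Chga ran with Neurod1 (0.992), Tm4sf4 and Scg5, Ptprn with Pax6 (0.994), Krt18 and Slc7a14, Slc30a8 with Cadps (0.983), Slc7a2 and Plcxd3, and Ptprn2 with Slc6a17 (0.986), Zdbf2 and Rnf138rt1. Ica1 was most like Pde1c (0.968), Snx16 and Stox1, and Tspan7 most like Epm2a (0.984), Sez6l2 and Acvr2b. Gad1 had no close partner, its nearest being mt-Atp6, Mars and Gm2861 (0.894, 0.893 and 0.889), and Gad2 was too sparse for its nearest genes (Tmem169, Ceacam10 and Tmem63c) to be read.

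Insulin RNA was also counted outside the endocrine classes, where its source was not tested. It took 1.24% of T-like UMIs with gluten and 0.774% with HC only. Chga in T-like cells, 106 nCPM with gluten and 54.8 with HC only, was 1.45 and 1.15 times the number this insulin RNA would bring at the ratio of beta-like cells. In 7 non-endocrine classes G6pc2 lay at 0 to 1.63 times that number. Chga lay at 0.998 to 2.79 times, apart from 6.42 times in gluten cDC1-like cells. Slc30a8 lay at 1.22 to 4.14 times, apart from 6.34 times in gluten cDC1-like cells. Ptprn and Ptprn2 had at most 13 UMIs in any of these classes.

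**Figure D2:**
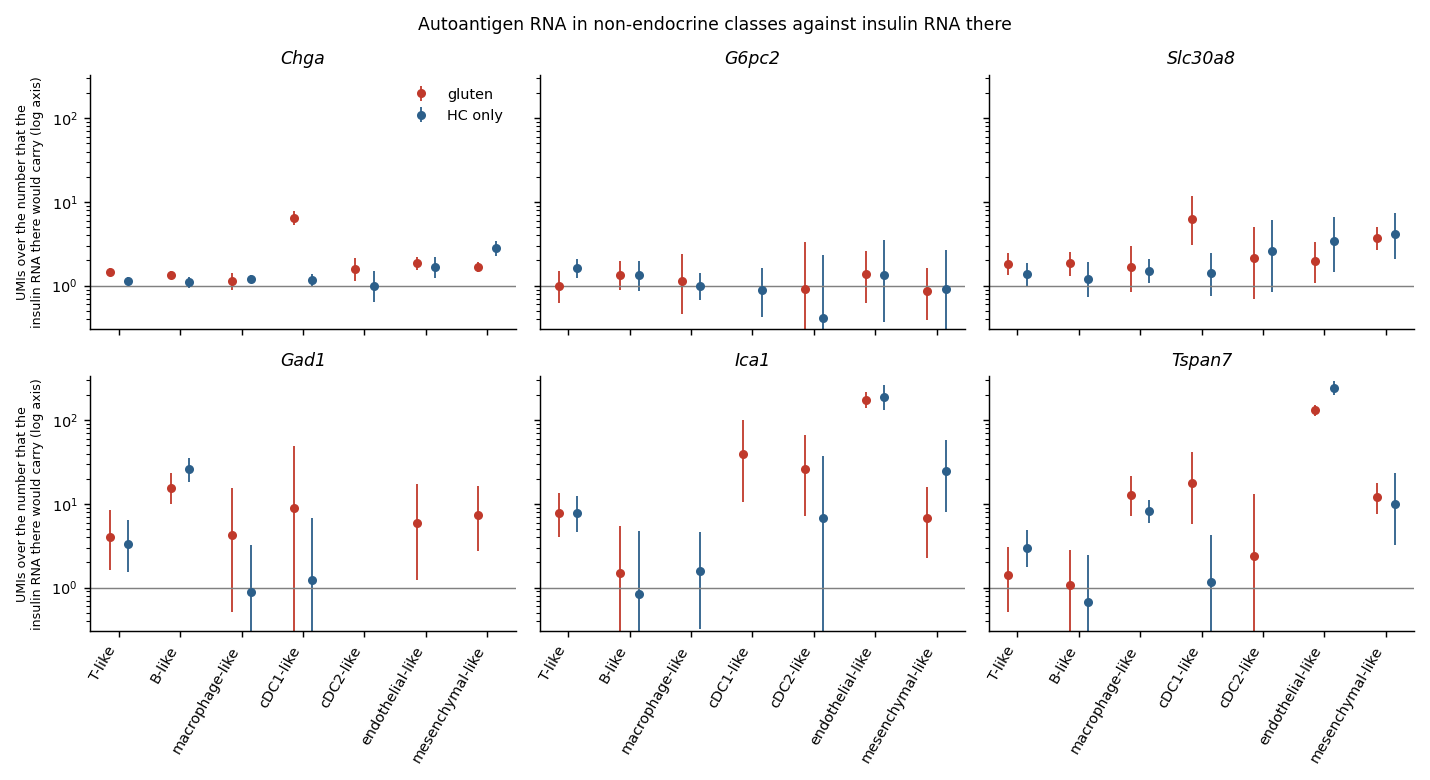
UMIs of 6 genes in 7 non-endocrine classes, divided by the number that the insulin RNA in the class would carry at the ratio of beta-like cells (log axis; 1 is the grey line), gluten left of HC only, with exact 95% counting intervals, some of which run below the axis; classes with 0 UMIs have no point. Gad1 in B-like cells (15.5 and 25.8) and Ica1 and Tspan7 in endothelial-like cells stand far above 1.

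Gad1, Ica1 and Tspan7 stood above the insulin-set number in some of these classes. Tspan7 reached 108 nCPM in gluten and 97.5 in HC-only endothelial-like cells, 132 and 242 times the number set by insulin RNA. Ica1 reached 52.3 and 30.7 nCPM there, 175 and 189 times that number. At 2000 UMIs per cell, 17.1% of gluten and 14.5% of HC-only endothelial-like cells held a Tspan7 UMI, against 0.421% and 0.766% of T-like cells. Macrophage-like cells held 15 Tspan7 UMIs with gluten and 39 with HC only, 12.9 and 8.26 times the insulin-set number.

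Gad1 was found in B-like cells. They held 23 UMIs in 22 of 958 gluten cells and 36 UMIs in 34 of 1114 HC-only cells, 9.80 and 10.96 nCPM, which is 15.5 times (interval 9.86 to 23.3) and 25.8 times (18.1 to 35.8) the number set by insulin RNA. T-like cells held 2.04 and 1.20 nCPM with gluten and HC only (7 and 9 UMIs), 4.08 and 3.37 times their insulin-set number. These levels are a description, with no test. B-like cells with a Gad1 UMI had a median of 202 insulin UMIs per 10000 in the gluten library, against 181 in those without. In the HC-only library the medians were 102 and 93.7, so the cells with Gad1 carried about as much insulin RNA as the rest. At 2000 UMIs per cell the share with Gad1 was 0.704% (0.192% to 1.79%) of gluten and 2.23% (1.39% to 3.39%) of HC-only B-like cells, and 0.281% and 0.236% of T-like cells. The same shares of beta-like cells were 4.99% with gluten and 5.91% with HC only. Before thinning the B-like shares were 2.30% and 3.05%, at median depths of 2154 and 2676.5 UMIs, and 390 gluten and 174 HC-only B-like cells were too shallow to thin. The gluten share overlaps that of T-like cells within counting error. B cells have been reported to make GABA.

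Single beta-like cells were compared after thinning to 22277 UMIs, which kept 916 gluten and 1340 HC-only cells. Every kept cell held Chga, and 99.7% in both libraries held G6pc2, while Slc30a8 was seen in 99.2% of gluten and 99.6% of HC-only cells. Ptprn was seen in 75.3% and 80.2%, Tspan7 in 70.1% and 70.0%, Gad1 in 32.6% and 41.6%, Ica1 in 36.5% and 39.1%, and Ptprn2 in 36.8% and 28.9% of gluten and HC-only cells. Gad2 was seen in 0.655% and 0.672%. The median cell held 6 of the 9 genes in both libraries, and none held all 9. The variance of the UMI count over its mean was 9.36 with gluten and 12.9 with HC only for Chga, and between 0.994 and 1.84 for the others, where 1 is counting noise alone. This ratio grows with the mean count, which was 75.6 and 83.4 UMIs for Chga. Its 5th and 95th percentiles were 42 and 123 UMIs with gluten, and 47 and 136 with HC only.

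Between the diets, the 8 measured genes (50 or more UMIs in the library of higher CPM) went both ways in beta-like cells, from -0.33 to 0.73 on the log2 scale. Their median log2 ratio of CPM, UMIs per 1000000 of all UMIs in the class, was -0.11 with gluten over HC only, against -0.02 for the 11032 measured genes. Ptprn2, 1 gene of the 8, was at least 1.25-fold higher with gluten (9.97% of all measured genes), and 1, G6pc2, at least 1.25-fold lower (9.86%). No gene of the set was 2-fold apart in these cells (1.15% of all measured genes were 2-fold higher and 0.743% lower). Of 7 measured in each class, alpha-like cells had 3 at least 1.25-fold higher (19.6% of all genes) and 1 lower (9.09%), delta-like cells 1 higher (13.4%) and 2 lower (11.1%), and PP-like cells 2 higher (19.8%) and none lower (11.7%). Of the non-endocrine classes, endothelial-like cells had 3 measured genes of the set and T-like cells 2. B-like, macrophage-like, cDC1-like and mesenchymal-like cells had 1 each, and cDC2-like cells 0. Over the 10 classes outside beta-like cells, 4 values of the set were 2-fold apart, where 3.63% of all values of measured genes were. The 4 were G6pc2 in delta-like cells and Chga in macrophage-like, endothelial-like and mesenchymal-like cells. With likely doublets kept, these Chga ratios were 0.055, 0.54 and 0.23, all short of 2-fold.

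**Figure D3:**
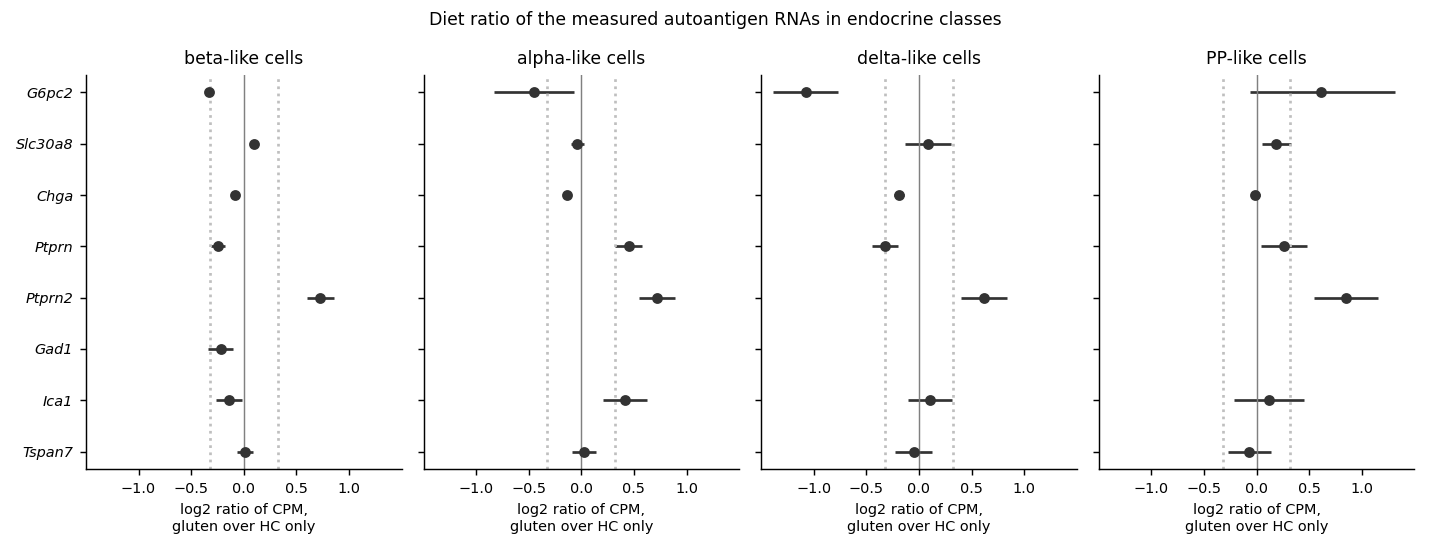
Log2 ratio of CPM, gluten over HC only, for each measured gene in beta-like, alpha-like, delta-like and PP-like cells, with exact 95% counting intervals; dotted lines mark a 1.25-fold difference, and genes under 50 UMIs have no point. Ptprn2 lies right of the dotted line in all 4 classes, at 0.62 to 0.85, whereas Ptprn changes side between classes.

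Ptprn2 RNA was higher with gluten in each of the 4 endocrine classes. Beta-like cells held 24.7 CPM (932 UMIs) with gluten and 14.9 CPM (958 UMIs) with HC only, a log2 ratio of 0.73 (0.60 to 0.86). In alpha-like cells the CPM were 94.8 with gluten and 57.6 with HC only (0.72, 0.55 to 0.89), in delta-like cells 87.1 and 56.8 (0.62, 0.40 to 0.84), and in PP-like cells 85.1 and 47.3 (0.85, 0.55 to 1.16). Over the alternative settings the ratio stayed between 0.43 and 1.16 in these classes. With 1 library per diet, this repeats over classes of the same 2 pools and not over mice.

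Ptprn, its close relative, did not follow. Its log2 ratio was 0.45 (0.32 to 0.58) in alpha-like and 0.26 (0.05 to 0.48) in PP-like cells, but -0.24 (-0.31 to -0.18) in beta-like and -0.32 (-0.44 to -0.20) in delta-like cells. Its CPM in beta-like cells were 73.1 with gluten and 86.4 with HC only. Ica1 was likewise higher with gluten in alpha-like cells (0.41, 0.21 to 0.62) and not in beta-like cells (-0.14, -0.26 to -0.01). Whether classes differ in these ratios could not be tested.

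G6pc2 in beta-like cells gave 307 CPM with gluten and 386 CPM with HC only, a log2 ratio of -0.33 (-0.36 to -0.30), just past the 1.25-fold line. It was on the near side of that line under 2 other scalings, at -0.32 with TMM and with median of ratios. Its ratio of -1.08 in delta-like cells was 0.67 under a stricter gate, and that in alpha-like cells, -0.45, was 0.13 with likely doublets kept. Insulin RNA in delta-like cells moved the same way, at 4.58% of summed UMIs with gluten and 8.73% with HC only. The part of this RNA in the ratio was not tested. Gad1 gave 23.7 CPM with gluten and 27.6 with HC only (-0.22, -0.34 to -0.10). Chga (-0.09), Slc30a8 (0.09) and Tspan7 (0.01) were nearly level. Gad2 was too low to be compared.

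Genes near the set in function were read in the same beta-like cells. Of 21 granule proteins, all measured in beta-like cells, 1 was at least 1.25-fold higher with gluten (Rab37, log2 0.51) and 3 lower (Pam, -0.42; Vgf, -0.40; Pcsk2, -0.33), with a median of -0.04. Of 16 zinc transporters, 14 were measured and 3 were lower, Slc39a8 (-0.97), Slc39a10 (-0.93) and Slc30a5 (-0.53), and 1 higher, Slc30a1 (0.48). Of 16 other reported antigens, 12 were measured and 1, the chaperone Hspa5, was past the line (0.73). None of the 6 genes of the Ica1 partner list was past it. Of 8 measured GABA genes 1 was higher and none lower. The same held for 1 of 6 measured genes of the glucose-6-phosphatase list. Of 9 measured receptor phosphatases, Ptprm was higher (0.35) and Ptprc lower (-0.48, with an interval that included 0). Of 15 measured tetraspanins, Tspan8 (0.47) and Tspan33 (0.42) were higher and Tspan14 lower (-0.47, with an interval that included 0).

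Interferon-response and immediate early genes also differed between the 2 libraries. Of 24 interferon-response genes, 21 were at least 1.25-fold lower with gluten in beta-like cells (median log2 -0.81), where 9.86% of all measured genes were. All 20 measured immediate early genes, which respond quickly to stimulation, were higher (median 1.53), where 9.97% of all were. The other endocrine classes went the same way. Of measured interferon-response genes, 19 of 21 in alpha-like, 20 of 21 in delta-like and 13 of 14 in PP-like cells were lower. Immediate early genes were higher in 16 of 20, 17 of 19 and 14 of 18. Of all measured genes in these classes, 9.09%, 11.1% and 11.7% were lower and 19.6%, 13.4% and 19.8% higher. The part of either programme in the diet ratios was not tested. The autoantigen RNAs were therefore also read against them within each library.

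Beta-like cells of each library were split into 4 quartile groups by their interferon-response RNA, which held 84.5 nCPM in the lowest and 5219 in the highest group with gluten, and 384 and 7692 with HC only. Slc30a8, Gad1 and Ptprn2 were lower in the highest group of both libraries. Slc30a8 held 824 nCPM in the highest and 1221 in the lowest group with gluten (log2 -0.57, -0.64 to -0.49), and 868 and 1169 with HC only (-0.43, -0.49 to -0.37). Gad1 gave -0.60 in both libraries, with intervals of -0.90 to -0.31 (gluten) and -0.81 to -0.40 (HC only). Ptprn2 gave -0.45 (-0.73 to -0.16) with gluten and -0.30 (-0.58 to -0.03) with HC only.

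Ptprn and G6pc2 ran the other way. Ptprn was higher in the highest group by 0.29 (0.13 to 0.45) with gluten and 0.17 (0.06 to 0.28) with HC only, and G6pc2 by 0.27 (0.19 to 0.35) and 0.08 (0.03 to 0.13). Chga was -0.10 in both libraries, and the intervals of Ica1 and Tspan7 included 0 in both. The 2 IA-2 family genes thus ran in opposite directions along the same axis. Cells of the highest group were somewhat deeper, with a median of 28945 UMIs against 26092 in the lowest group with gluten, and 38956 against 35230 with HC only, and the part of depth was not tested. Cells of 1 library are not replicates, and these intervals cover counting error only.

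**Figure D4:**
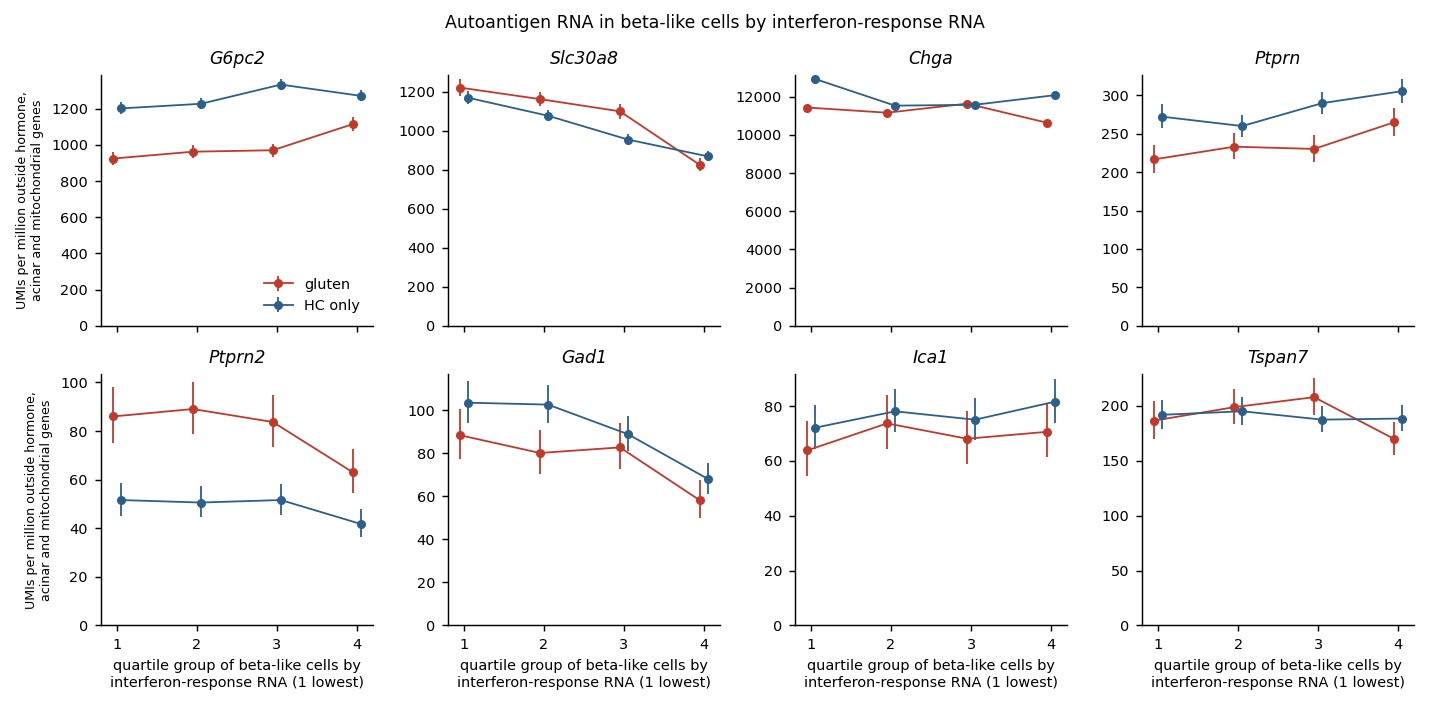
Levels in nCPM in quartile groups of beta-like cells ordered by interferon-response RNA (1 lowest, 4 highest), gluten and HC only, with 95% Poisson intervals of the UMI counts. Slc30a8 and Gad1 are lowest in group 4 of both libraries, and Ptprn2 lies higher with gluten in every group.

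Ptprn2 was higher with gluten within each group, with log2 ratios of 0.74, 0.82, 0.70 and 0.59 in order of rising interferon-response RNA. G6pc2 was lower with gluten within each group as well, at -0.38, -0.35, -0.46 and -0.19. Both directions were thus the same in all 4 groups, although matching groups of the 2 libraries do not hold equal interferon-response RNA. Split by immediate early RNA instead, Chga was higher in the highest group by 0.32 (0.30 to 0.35) with gluten and 0.37 (0.36 to 0.39) with HC only, and Gad1 was lower (-0.35, -0.64 to -0.07; and -0.45, -0.65 to -0.24). Slc30a8 was level with gluten (-0.0045, -0.08 to 0.07) and 0.17 (0.11 to 0.23) with HC only.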

How the data were processed

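Each diet gave 1 library of 10x Genomics 3' single-cell RNA, a pool of 3 mice. The authors deposited raw UMI counts per gene and barcode, made with Cell Ranger 4.0.0 on mm10 per the submitters' processing notes; no source used here states the cell calling, annotation release or strand setting. Cells with at least 500 UMIs, 200 genes and at most 20% mitochondrial UMIs were kept, and the 6% with the highest Scrublet scores in each library were removed as likely doublets; Scrublet itself called 3 gluten and 2 HC-only cells.

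Cells were gated on fixed markers by a mean capped z score of at least 0.5 and a margin of 0.25 over the next type, with at least 3 markers seen. The scoring rule, and a minimum of 10% acinar-marker UMIs for acinar cells, were set after seeing the data. Class sums were compared with edgeR 4.0.16 (quasi-likelihood test, TMM, Benjamini-Hochberg, threshold 0.05), with library as a block because classes come from the same pools. The replicate unit is the pool, so p-values weigh class differences against their variation between these 2 libraries. They do not measure variation between mice. A fit over non-endocrine classes, added after seeing the levels, is not reported, because Gad1 and Ica1 passed its filter on low counts through the class where they are high. Diet ratios are log2 ratios of CPM with exact conditional binomial intervals (95%), and a gene counted as measured from 50 UMIs. PCR duplicates are removed by UMIs, but intervals cover counting error only. Expected counts from insulin RNA scale the beta-like ratio of gene to insulin UMIs in the same library. The endocrine fit was tested on simulated data. All 9 genes are described in each class. Genes of similar pattern are the 3 with the highest correlation, and list genes named are up to 3 a direction whose intervals lie farthest from 0, plus those a result turns on. The genes and lists were chosen with earlier results of these data known. Python 3.11.15, scanpy 1.11.5 and R 4.3.3 were used.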

Additional observations from a re-analysis of the deposited data

Results flagged for a closer look

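Ptprn gave diet ratios of opposite sign in alpha-like cells (log2 0.45, gluten over HC only) and delta-like cells (-0.32). The difference between the classes was not tested, since each diet has 1 library.

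Chga was higher with gluten in T-like (0.93), B-like (0.98), endothelial-like (1.05) and mesenchymal-like cells (1.26), but lower in macrophage-like cells (-1.45), and these differences were not tested. Insulin RNA moved the same way in these classes. It took 1.24% of T-like UMIs with gluten and 0.774% with HC only, 1.54% and 0.906% of B-like, 0.829% and 0.416% of endothelial-like, 1.51% and 0.356% of mesenchymal-like, and 0.784% and 1.90% of macrophage-like UMIs. Chga in macrophage-like cells was 1.13 times with gluten and 1.20 times with HC only the number this insulin RNA would carry. In cDC1-like cells the 2 did not move together. Their Chga ratio was 0.06 (-0.32 to 0.45), whereas insulin RNA took 0.408% of UMIs with gluten and 2.03% with HC only. With likely doublets kept, the Chga ratio was 0.055 in macrophage-like, 0.54 in endothelial-like and 0.23 in mesenchymal-like cells. Leiden classes gave 0.36 in T-like and 1.63 in endothelial-like cells.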

How the results depend on the processing

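No paired analysis was possible because each diet has 1 library, and the diet ratios rest on 1 pool of mice each. The count at least 1.25-fold lower with gluten in beta-like cells, 1, was 0 with TMM or median of ratios scaling, since G6pc2 lies at the line, and 2 with a minimum of 20 UMIs. With that minimum 11 values, against 4, were 2-fold apart outside beta-like cells. Some diet ratios turned, where the cause was not tested: G6pc2 in alpha-like cells was 0.13 with doublets kept, G6pc2 in delta-like cells 0.67 under the stricter gate and 0.31 with Leiden classes, Slc30a8 in PP-like cells -0.0056 without acinar RNA carriers, and Chga in macrophage-like cells 0.055 with doublets kept.

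Without the library block, 9 calls were lost, while no log2 value moved by more than 0.0595. Genes higher in alpha-like than PP-like cells were then 1, lower in beta-like than delta-like 1 and higher in delta-like than PP-like 0. With DESeq2, lower in alpha-like than delta-like were 1 and higher in delta-like than PP-like 1. With all classes in the fit, lower in alpha-like than delta-like were 1, higher in alpha-like than PP-like 0, lower in beta-like than alpha-like 1, lower in beta-like than PP-like 1, higher in delta-like than PP-like 0 and lower 1. Higher in delta-like than PP-like were 1 with doublets kept, without acinar carriers and under the stricter gate, which left 1 lower in alpha-like than delta-like cells.

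CPM without TMM, an alternative added after seeing the data, made 5 genes lower in beta-like than alpha-like cells, where 839 of all genes were then higher and 9303 lower, against 3480 and 3495 with TMM. It turned Chga (-0.13), Ptprn (-0.63) and Slc30a8 (-0.76) against alpha-like cells, Tspan7 against delta-like cells (-0.84) and Ptprn against PP-like cells (-0.57). Of the class values, G6pc2 in delta-like over PP-like cells was -0.26 under the stricter gate, and in alpha-like over delta-like cells 0.52 with Leiden classes. Leaving out 1 library gave values with no test. Ica1 in beta-like over alpha-like cells ranged from -0.43 to 0.040, Ptprn from 0.01 to 0.62, and G6pc2 in delta-like over PP-like cells from 0.28 to 1.94. Of the values under alternatives, 913 kept their direction and, where tested, their call. Of the rest, 50 moved in size, 41 lost a call, 13 turned direction and 3 gained a call. Leiden clusters gave no PP-like class, and cDC1-like cells fell under 50 a library once thinned.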
